A study of Mus musculus with 2 samples.

Results

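The genes described here are 7 subunits of the GABA-A receptor, chosen by gene symbol from the 32285 genes listed in each library: Gabra2, Gabra3, Gabra4 and Gabra5 of the alpha class, Gabrb1 and Gabrb2 of the beta class, and Gabrg3 of the gamma class. All 7 were detected and all 7 passed the filter on low counts for the comparison of cell types. Cerebral cortex of mouse embryos was profiled by single-cell RNA sequencing at embryonic day (E) 16.5 in 2 libraries of genotype WT (wild type), the control animals of an Eomes-Cre line called EomesDot. No mutant or treated group is compared, so every comparison lies between cell types of the same 2 libraries. The labels do not say whether a library holds 1 embryo or several, and whether the control embryos carry the Cre allele is not given. The p-values measure only how differences between cell types vary across these 2 libraries. The overall difference between the libraries is taken out first, and the spread is estimated over all cell types fitted together. The spread between embryos is not measured.

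GABA-A receptors are chloride channels opened by GABA, and each channel is a ring of subunits drawn mostly from the alpha, beta and gamma classes. The alpha subunit shapes GABA affinity and kinetics, beta subunits are needed for assembly and contribute to the GABA binding site, and gamma subunits support clustering at synapses. In embryonic cortex, GABA is known to depolarise progenitors and young neurons, because the chloride importer Slc12a2 is active before the exporter Slc12a5 becomes abundant.

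Cells were assigned to types by gates on marker UMIs (unique molecular identifiers, each counting 1 captured molecule). None of the 7 genes is in a gate. Of 5966 and 10247 cells that passed the quality filters, 2734 and 4380 fell into 1 of 12 neural gates, with median depths of 5706 and 4938 UMIs over the cells that passed. Markers left out of the gates were highest in their own gate for 5 of 5 in radial glial cells (RGC), 4 of 4 in intermediate progenitor cells (IPC), and 4 of 5 in interneurons of the medial ganglionic eminence (MGE). For the caudal ganglionic eminence (CGE) gate this held for 1 of 4, and Vip was at 0 there. Upper-layer and deep-layer gates each had 2 of 3, although Rorb, an upper-layer marker, was higher in the deep-layer gate (356 CPM, UMIs per 1000000 UMIs) than in the upper-layer gate (114 CPM). Zbtb20-high excitatory neurons had 0 of 4 hippocampal markers highest, so they are named here by their rule. The gate called cycling GABAergic progenitors also had 0 of 4 left-out markers highest, with Hes6 and Tead2 higher in IPC, Sp9 in MGE interneurons and Gsx1 in Olig glia, so that name too stands for its rule. The labelled tissue is cerebral cortex, but 240 and 396 cells met the gate for striatal projection neurons. The 2 libraries shared 21 barcodes among cells that passed the filters.

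The genomic positions of the genes are given as background, and whether they bear on the levels was not tested. In RefSeq for GRCm38.p6, the build named mm10 in the submitters' notes, Gabra2 lies at chr5:70958392-71095849 on the minus strand, Gabra4 at chr5:71569734-71658308 on the minus strand and Gabrb1 at chr5:71657921-72149572 on the plus strand. Gabra4 and Gabrb1 stand head to head. Their start sites are 387 bases apart and their 5′ ends overlap on opposite strands, and the strand setting of the counting is not given in the sources used here. Gabrg3 at chr7:56716463-57387215 and Gabra5 at chr7:57407669-57591016 are neighbours separated by 20453 bases. Gabra3 lies at chrX:72432676-72656919 and Gabrb2 at chr11:42419515-42632591.

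RefSeq promoter windows were matched for 7 of 7 genes. The 250 bases before the start are shown for Gabra2 and Gabrg3, because both genes were higher in newborn neurons than in IPC and their windows lie outside the span of any of the 7 genes. Gabra5 and Gabrb2 were higher there too, but their windows lie within their own genes and are not printed. Capitals mark the motif CAGNTG (searched on both strands, thus also as CANCTG, with overlaps counted), which is bound by proneural bHLH factors. The motif is found in 44.8% of 32851 windows of this length. Among the 11 windows of the 7 genes it is in 3, of Gabra2, Gabra5 and Gabrb2. It occurs 1 time in the Gabra2 window and not in the Gabrg3 window, which describes only these letters in these windows. The Gabra2 window is at chr5:71095850-71096099 and the Gabrg3 window at chr7:57387216-57387465, both read 5′ to 3′ on the minus strand.
Gabra2: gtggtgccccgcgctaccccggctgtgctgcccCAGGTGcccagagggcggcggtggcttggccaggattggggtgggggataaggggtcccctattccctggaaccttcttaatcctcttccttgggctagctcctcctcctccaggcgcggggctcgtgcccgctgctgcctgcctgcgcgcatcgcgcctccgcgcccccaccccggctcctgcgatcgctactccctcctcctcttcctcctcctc
Gabrg3: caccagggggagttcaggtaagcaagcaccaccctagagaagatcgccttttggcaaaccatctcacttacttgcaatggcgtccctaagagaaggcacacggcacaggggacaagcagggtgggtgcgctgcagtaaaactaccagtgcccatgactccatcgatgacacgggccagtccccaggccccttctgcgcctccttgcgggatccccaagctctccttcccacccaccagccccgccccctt
The GC content of these windows was 70% for Gabra2 and 60.4% for Gabrg3, against a median of 52.4% over all windows.

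**Figure D1:**
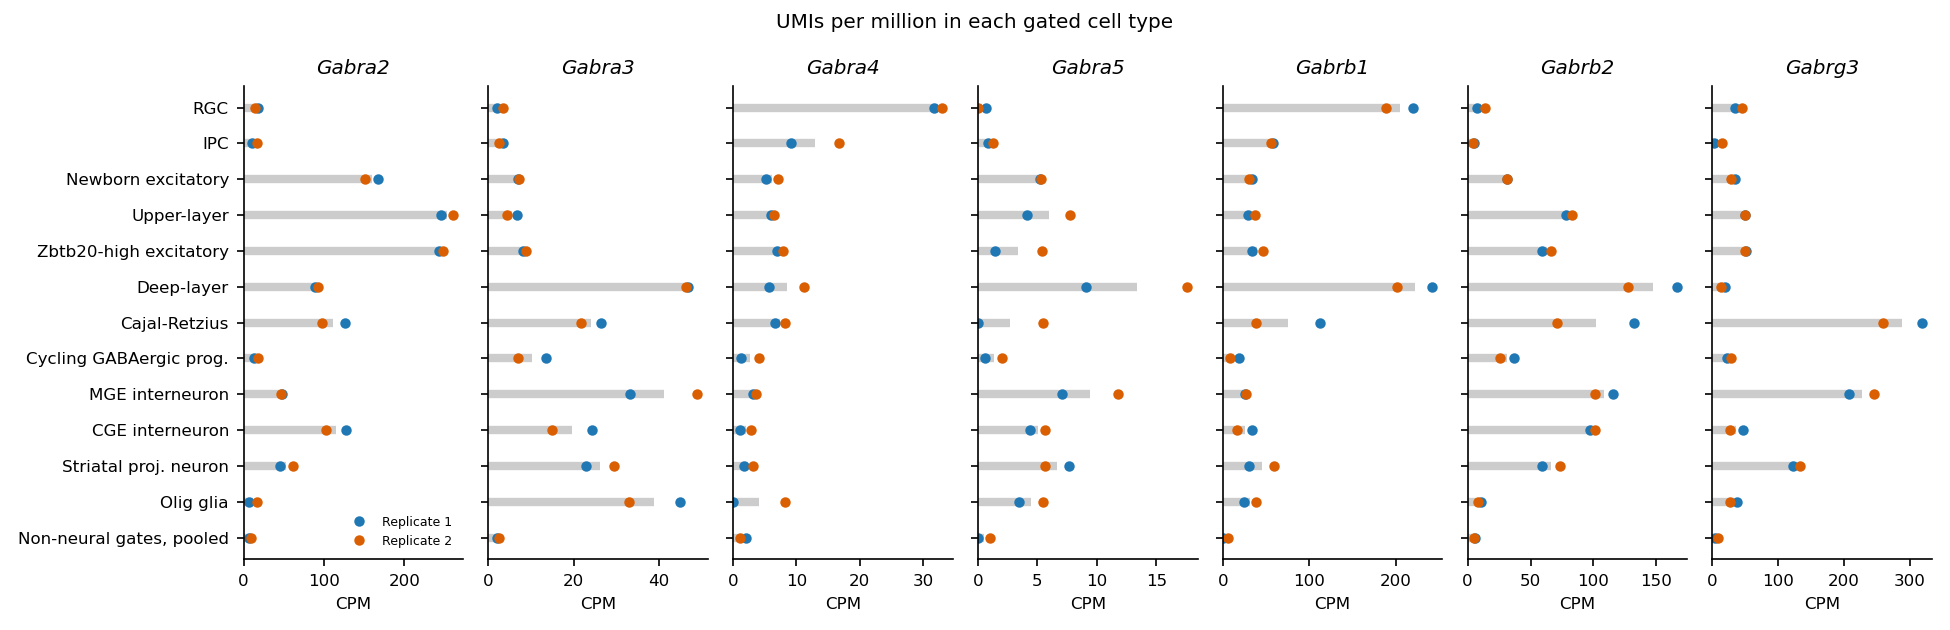
Level of each subunit (x axis, UMIs per 1000000, CPM, with a separate linear scale per gene) in 12 neural gates and in the pooled non-neural gates. Points are the 2 libraries and grey bars their mean. Gabra2 was highest in upper-layer and Zbtb20-high neurons, Gabra4 in RGC, Gabrb1 in deep-layer neurons and RGC, and Gabrg3 in Cajal-Retzius cells and MGE interneurons.

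Gabra2, an alpha subunit of postsynaptic and axon initial segment receptors, had its highest levels in excitatory neurons. Its level was 245 and 260.2 CPM in upper-layer neurons of replicates 1 and 2 and 243 and 248 CPM in Zbtb20-high neurons, and these 2 gates overlapped. Newborn excitatory neurons had 168 and 151 CPM, clear of both. CGE interneurons had 128 and 102 CPM, overlapping the Cajal-Retzius cells at 126 and 98.1 CPM. Deep-layer neurons had 88.8 and 92.7 CPM, striatal projection neurons 45.1 and 61.7 CPM, and MGE interneurons 48.1 and 46.9 CPM. RGC (17.5 and 14.8 CPM), cycling GABAergic progenitors (12.9 and 17.9 CPM) and IPC (10.8 and 16.7 CPM) were lowest with Olig glia and overlapped one another. Cells of high doublet score (Scrublet) were left out as a choice made after the data were seen. Without them IPC had 5.24 and 15.6 CPM, from 6 and 23 UMIs in place of 13 and 27. Cycling GABAergic progenitors then had 6.61 and 11.7 CPM, below RGC at 16.5 and 14.5 CPM. In the pooled non-neural cells Gabra2 had 6.50 and 8.85 CPM.

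After each cell was thinned to 1500 UMIs, 24.6% ± 1.36 (SD, n = 2 libraries) of upper-layer neurons and 16.0% ± 6.65 of newborn neurons held a Gabra2 UMI, against 2.92% ± 0.52 of RGC. The unthinned shares were 55.2%, 38.2% and 10.4%. Among non-neural gates the thinned share was 3.03% in microglia, 2.98% in erythroid cells, 1.52% in fibroblasts, 0.52% in endothelial cells and 0 in mural cells. The thinned RGC share was thus within the range of these gates. The unthinned share was 10.4% in RGC and 2.84% in endothelial cells, gates of similar median depth (10051 and 7185.5 UMIs in RGC, 9343 and 7387.5 UMIs in endothelial cells). Median depths were 6366.5 and 5440 UMIs in upper-layer cells and 3184.5 and 5193.5 UMIs in microglia.

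Gabra3, an alpha subunit expressed early in many brain regions, followed another order. Deep-layer neurons had 46.7 and 46.3 CPM, MGE interneurons 33.1 and 49.0 CPM, and Olig glia 44.9 and 32.9 CPM from 13 and 12 UMIs. MGE interneurons overlapped both of the others, and the deep-layer values lay above those of Olig glia. Striatal projection neurons had 23.0 and 29.3 CPM and CGE interneurons 24.3 and 14.8 CPM. Upper-layer neurons had 6.66 and 4.31 CPM, and RGC had 1.94 and 3.37 CPM from 3 and 5 UMIs.

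Gabra4, an alpha subunit known in adult brain for extrasynaptic receptors, was highest in RGC, at 31.8 and 33.0 CPM with 49 UMIs in each library. IPC had 9.18 and 16.7 CPM, and no other gate exceeded 11.2 CPM in either library. RGC stood clear of every other gate. Gabra5, an alpha subunit of extrasynaptic receptors, was sparse. Deep-layer neurons had 9.11 and 17.6 CPM from 8 and 22 UMIs, MGE interneurons held 9 and 23 UMIs, and most neighbours in its order overlapped. RGC held 1 Gabra5 UMI in replicate 1 and 0 in replicate 2, and 3 counts of the RGC total correspond to 2.02 CPM there.

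Gabrb1, a beta subunit, had its highest levels in deep-layer neurons and RGC. Deep-layer neurons had 241 and 201 CPM, and RGC had 219 and 189 CPM, so these 2 gates overlapped. IPC had 57.6 and 55.1 CPM, newborn neurons 33.2 and 30.5 CPM, and upper-layer neurons 28.5 and 37.4 CPM. MGE interneurons had 26.0 and 27.0 CPM and cycling GABAergic progenitors 18.1 and 7.74 CPM. These levels depend on cells with high doublet scores. Without them, a choice made after the data were seen, Gabrb1 was at 19.6 and 16.2 CPM in MGE interneurons, from 23 and 29 UMIs in place of 33 and 53. It was at 7.27 and 3.06 CPM in the cycling GABAergic progenitors, from 11 and 6 UMIs in place of 31 and 19. In replicate 1, 13 of the 17 Gabrb1 UMIs of Cajal-Retzius cells came from 1 cell, and the levels there were 113 and 38.2 CPM. In RGC the UMIs came from 68 and 76 cells, with at most 26 in 1 cell. Thinned shares of cells with a Gabrb1 UMI were 21.1% ± 5.84 in deep-layer neurons, 17.9% ± 4.42 in RGC and 7.92% ± 2.95 in IPC (SD, n = 2 libraries). No non-neural gate exceeded 1.04%, in endothelial cells, after thinning. The unthinned shares were 36.7%, 41.8% and 19.0%, against 1.56% in endothelial cells, at median depths of 10051 and 7185.5 UMIs in RGC and 9343 and 7387.5 UMIs in endothelial cells.

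Gabrb2, the other beta subunit, was lowest in IPC, with 6 and 7 UMIs in all. RGC had 7.13 and 13.5 CPM, overlapping Olig glia at 10.4 and 8.21 CPM. Newborn neurons had 31.2 CPM in both libraries, upper-layer neurons 78.3 and 82.8 CPM, and deep-layer neurons 166 and 128 CPM. MGE interneurons (116 and 101 CPM) and CGE interneurons (97.1 and 102 CPM) overlapped, and the Cajal-Retzius libraries, at 132 and 70.9 CPM, lay on either side of both. The thinned share of cells with a Gabrb2 UMI was 1.68% ± 0.51 in RGC and 0.36% ± 0.51 in IPC (SD, n = 2 libraries). Among non-neural gates it was 1.28% in endothelial cells, 0.76% in microglia, 0.39% in erythroid cells and 0 in fibroblasts. Mural cells had 4.17% ± 5.89, from 0 of 17 cells in replicate 1 and 3 of 36 in replicate 2. Apart from the fibroblasts, each of these non-neural shares came from cells of 1 library, and the endothelial value was 2.56% in replicate 1 and 0 in replicate 2. The RGC share, 1.32% and 2.04% in the libraries, was thus within the range of the non-neural gates.

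Gabrg3, a gamma subunit, was highest in Cajal-Retzius cells, early-born neurons of the marginal zone that express reelin, at 318 and 259 CPM. That gate held 19 and 39 cells, and 22 of 48 UMIs of replicate 1 came from 1 cell. Because replicate 1 had fewer than 20 such cells, the gate was not tested. MGE interneurons had 208 and 245 CPM and striatal projection neurons 122 and 134 CPM, each clear of its neighbours. Upper-layer neurons had 50.1 and 49.2 CPM, RGC 33.7 and 44.5 CPM, and deep-layer neurons 19.4 and 13.6 CPM. IPC had 1.67 and 14.2 CPM from 2 and 23 UMIs. Thinned shares with a UMI were 24.7% ± 2.29 of Cajal-Retzius cells, 16.8% ± 4.34 of MGE interneurons and 13.7% ± 3.47 of striatal projection neurons, against at most 1.56% in a non-neural gate.

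The first comparison followed the excitatory lineage from RGC, the primary progenitors, to the Eomes-expressing IPC. A gene is called changed when its adjusted p is under 0.05 in edgeR's quasi-likelihood test with the Benjamini-Hochberg (BH) adjustment over all genes tested. Of the 7 subunits, 3 were lower in IPC and none higher, with 26% of the 13767 genes tested called in this comparison. The median log2 fold change was -1.13 over the 7 subunits and 0.0021 over all genes. Gabrb1 was lower (log2 fold change -1.85 ± 0.21 SE, edgeR BH-adjusted p = 3.9e-08). Gabra4 had a log2 fold change of -1.31 ± 0.32 (edgeR BH-adjusted p = 0.00269) and Gabrg3 one of -2.13 ± 0.38 (edgeR BH-adjusted p = 5.91e-05). The Gabra4 call was lost when cells were thinned to 1500 UMIs. With 2 Gabrg3 UMIs in IPC of replicate 1, the log2 ratio was -4.03 in that library alone and -1.62 in replicate 2 alone, and the fitted value was -2.75 without cells of high doublet score (ratios within a library have 0.5 UMI added on each side). Gabra2 and Gabra3, at -0.18 and 0.11 on the log2 scale, had SEs larger than the change, and Gabrb2 at -1.13 ± 0.47 did not pass.

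From IPC to newborn excitatory neurons, 6 of 7 subunits were called, where 35.7% of all genes were. There were 4 higher and 2 lower, with a median log2 fold change of 1.92. Gabra2 was higher by 3.58 ± 0.19 on the log2 scale (edgeR BH-adjusted p = 7.4e-15), and Gabrb2 by 2.83 ± 0.34 (edgeR BH-adjusted p = 6.4e-08). Gabrg3 was higher by 1.92 ± 0.36 (edgeR BH-adjusted p = 8.42e-05) and Gabra5 by 2.40 ± 0.75 (edgeR BH-adjusted p = 0.0131), the latter from 3 UMIs in IPC. The Gabrg3 log2 ratio was 4.07 in replicate 1 alone, against the same 2 UMIs, and 0.94 in replicate 2 alone. The call of Gabra5 was lost after removal of cells with high doublet scores (log2 fold change 2.17, edgeR BH-adjusted p = 0.0643). Newborn neurons then kept 9 and 8 of 15 and 15 UMIs, and IPC kept 1 and 1 of 1 and 2. Gabrb1 was lower (log2 fold change -0.72 ± 0.25, edgeR BH-adjusted p = 0.0246), as was Gabra4 (-0.99 ± 0.38, edgeR BH-adjusted p = 0.042). Neither of these 2 lower calls was retained with DESeq2. Gabra4 was also lost with stricter gates, with no filter on low counts and without the replicate block (edgeR BH-adjusted p = 0.0535), and Gabrb1 and Gabrg3 with thinning. Gabra3 had a log2 fold change of 1.38 ± 0.55 (edgeR BH-adjusted p = 0.0506).

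**Figure D2:**
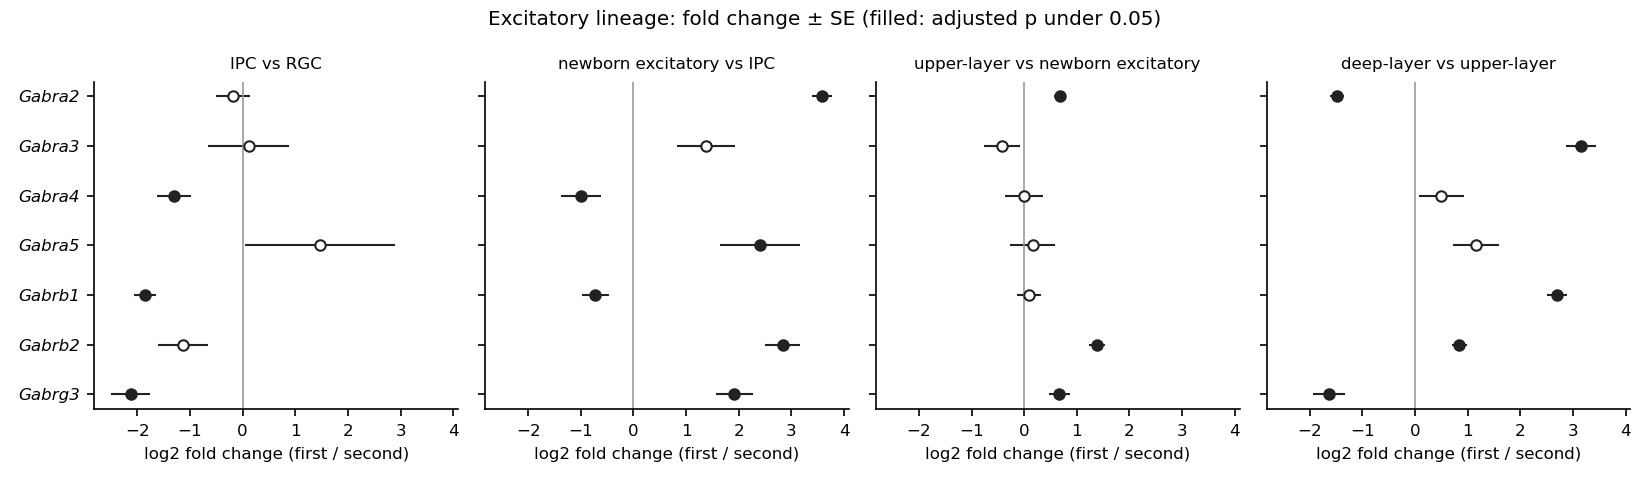
Log2 fold change (x axis) of each subunit in 4 comparisons of excitatory-lineage gates, with the first-named gate over the second. Bars are the SE of the edgeR fit over 2 libraries, filled points have an adjusted p under 0.05. Gabra2 and Gabrb2 were higher at the step from IPC to newborn neurons and again in upper-layer neurons, whereas Gabrb1 was lower in IPC and higher in deep-layer than in upper-layer neurons.

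Upper-layer neurons differed from newborn neurons in 3 subunits, all higher, where 14.9% of all genes were called. Gabrb2 was higher by 1.39 ± 0.15 on the log2 scale (edgeR BH-adjusted p = 3.2e-08) and Gabra2 by 0.68 ± 0.11 (edgeR BH-adjusted p = 1.96e-05). Gabrg3 was higher by 0.67 ± 0.20 (edgeR BH-adjusted p = 0.0196), but its call was lost with DESeq2, thinning and stricter gates. Gabrb1 (0.10 ± 0.22) and Gabra4 (0.00 ± 0.36) gave log2 fold changes smaller than their SE. Set directly against RGC, upper-layer neurons had 5 subunits called, 3 higher and 2 lower, where 56.4% of all genes were. Gabra2 was higher by 4.08 ± 0.17 (edgeR BH-adjusted p = 4.16e-18) and Gabrb2 by 3.09 ± 0.22 (edgeR BH-adjusted p = 8.47e-13). Gabra4 was lower, with a log2 fold change of -2.30 ± 0.30 (edgeR BH-adjusted p = 1.65e-07), and so was Gabrb1, with -2.48 ± 0.19 (edgeR BH-adjusted p = 1.94e-12). The call of Gabra5 compares 58 UMIs with 1, a pooled ratio of 19.6 with an exact 95% counting interval of 3.38 to 788. In replicate 1 alone the log2 ratio was 2.14, and RGC of replicate 2 held no Gabra5 UMI.

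Deep-layer neurons, the earlier-born projection neurons, differed from upper-layer neurons in 5 of 7 subunits, where 15.3% of all genes were called. Gabra3 was higher by 3.15 ± 0.28 on the log2 scale (edgeR BH-adjusted p = 5.97e-10). Gabrb1 was higher by 2.70 ± 0.19 (edgeR BH-adjusted p = 4.3e-12) and Gabrb2 by 0.84 ± 0.14 (edgeR BH-adjusted p = 3.4e-05). Gabra2 was lower (-1.48 ± 0.14, edgeR BH-adjusted p = 7.9e-10), as was Gabrg3 (-1.63 ± 0.31, edgeR BH-adjusted p = 0.00023). Gabra4 and Gabra5 did not pass. Gabra2 differed within the deep-layer gate in a division chosen after the values were seen. In cells with at least 2 UMIs of Tle4 and Foxp2, transcription factors of layer 6 neurons (110 and 145 cells), Gabra2 was at 41.9 and 54.5 CPM. In the 8 and 17 cells with none it was at 541 and 322 CPM, from 36 and 34 UMIs. Gabrb1 was at 261 and 235 CPM in the former and 345 and 47.4 CPM in the latter. Zbtb20-high neurons differed from upper-layer neurons in 1 subunit, with 11.6% of all genes called. That was Gabrb2, with a log2 fold change of -0.41 ± 0.12 (edgeR BH-adjusted p = 0.0258), which was not retained with DESeq2, thinning or stricter gates.

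The make-up of the subunit UMIs shows the same data within each gate. Because genes differ in how well their 3′ ends are captured, only the change in a share between gates is described, not the order of shares within a gate. Of the UMIs of the 4 alpha members, Gabra4 supplied 61.2% and 64.5% in RGC (95% exact binomial intervals 49.7% to 71.9% and 52.7% to 75.1%, which cover counting error only). It supplied 37.9% and 45.0% in IPC, and 2.81% and 4.15% in newborn neurons. Gabra2 supplied 33.8% and 28.9% in RGC, 90.6% and 88.6% in newborn neurons and 93.6% and 93.4% in upper-layer neurons. Its share was 59.1% and 55.2% in deep-layer neurons, where Gabra3 supplied 31.1% and 27.6%. The deep-layer figure depends on few cells, since the 8 and 17 cells without Tle4 and Foxp2 held 36 and 34 of the Gabra2 UMIs. In the 110 and 145 cells with at least 2 UMIs of those genes Gabra2 supplied 36.6% and 39.4%, and Gabra3 50% and 38.7%. Of the UMIs of the 2 beta members, Gabrb1 supplied 95.1% ± 2.48 in RGC, 50.5% ± 1.55 in newborn neurons, 28.9% ± 3.13 in upper-layer neurons, 60.2% ± 1.38 in deep-layer neurons and 19.7% ± 1.91 in MGE interneurons (SD, n = 2 libraries).

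**Figure D3:**
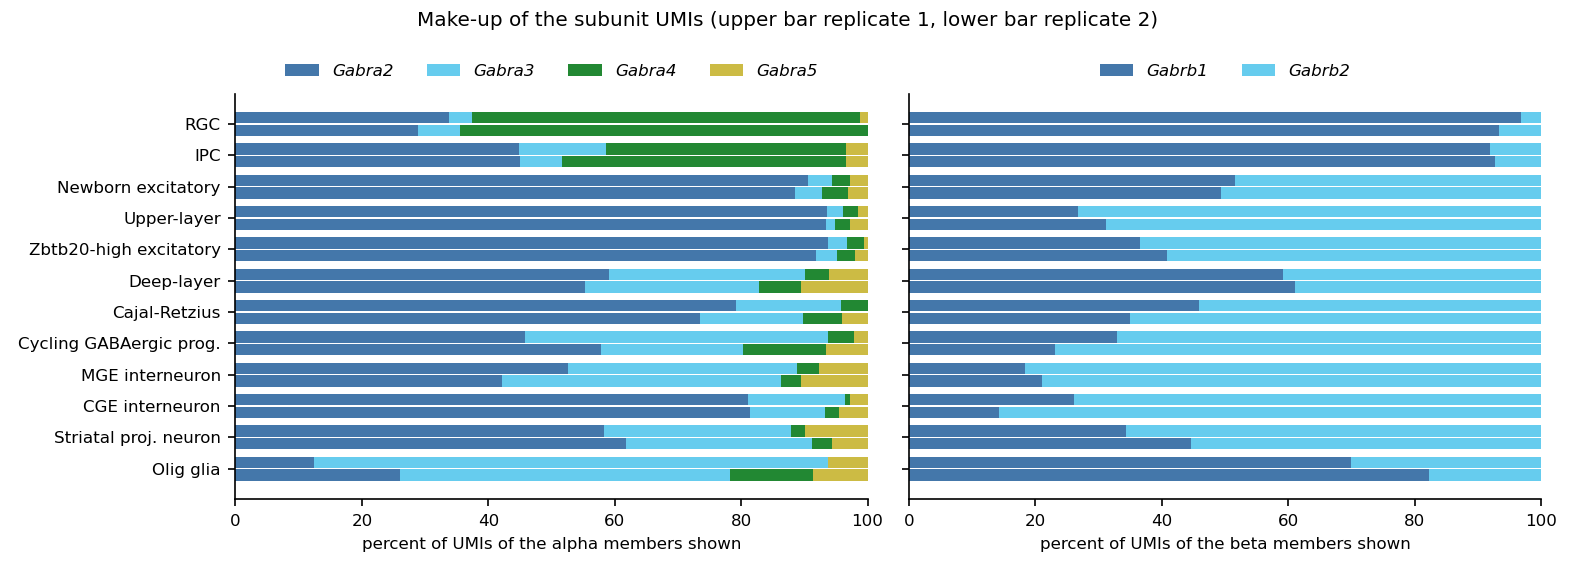
Share of UMIs (x axis, percent) supplied by each of the 4 alpha members (left) and 2 beta members (right) in 12 neural gates. In each pair of stacked bars the upper is replicate 1 and the lower replicate 2. The Gabra4 share is smaller and the Gabra2 share larger in newborn neurons than in RGC, and the Gabrb1 share of beta UMIs is larger in RGC than in newborn and upper-layer neurons.

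Among GABAergic cells, MGE interneurons were first set against upper-layer neurons, and 4 of 7 subunits were called, where 30.9% of all genes were. Gabra3 was higher by 2.98 ± 0.26 on the log2 scale (edgeR BH-adjusted p = 1.85e-10) and Gabrg3 by 2.16 ± 0.16 (edgeR BH-adjusted p = 4.88e-12). The Gabra3 log2 ratio was 2.30 in replicate 1 alone and 3.48 in replicate 2 alone. Gabra2 was lower, with -2.46 ± 0.14 (edgeR BH-adjusted p = 8.1e-15). Gabrb2 was higher by 0.37 ± 0.13 (edgeR BH-adjusted p = 0.0366), a call not retained with DESeq2 or with no filter on low counts. Median depths were lower in MGE interneurons (3327 and 3854 UMIs) than in upper-layer cells (6366.5 and 5440 UMIs).

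MGE interneurons differed from CGE interneurons in 3 subunits, where 7.11% of all genes were called. Gabrg3 was higher by 2.71 ± 0.22 on the log2 scale (edgeR BH-adjusted p = 1.17e-10), and Gabra3 by 1.17 ± 0.28 (edgeR BH-adjusted p = 0.00544). The Gabra3 log2 ratio was 0.43 in replicate 1 alone and 1.70 in replicate 2 alone, and its call was lost with thinning. Gabra2 was lower, with -1.27 ± 0.17 (edgeR BH-adjusted p = 2.28e-06). Of the 42 Gabrg3 UMIs in CGE interneurons of replicate 1, 23 came from 1 cell. The beta subunits gave log2 fold changes of 0.09 ± 0.16 for Gabrb2 and 0.14 ± 0.36 for Gabrb1, and neither passed. Striatal projection neurons had 2 subunits called against MGE interneurons, both lower, where 12.2% of all genes were called. These were Gabrb2 (log2 fold change -0.70 ± 0.16, edgeR BH-adjusted p = 0.00216) and Gabrg3 (-0.85 ± 0.16, edgeR BH-adjusted p = 0.000322). Gabrb1 was at 0.81 ± 0.29 (edgeR BH-adjusted p = 0.0689) and passed when only these 2 gates were fitted.

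**Figure D4:**
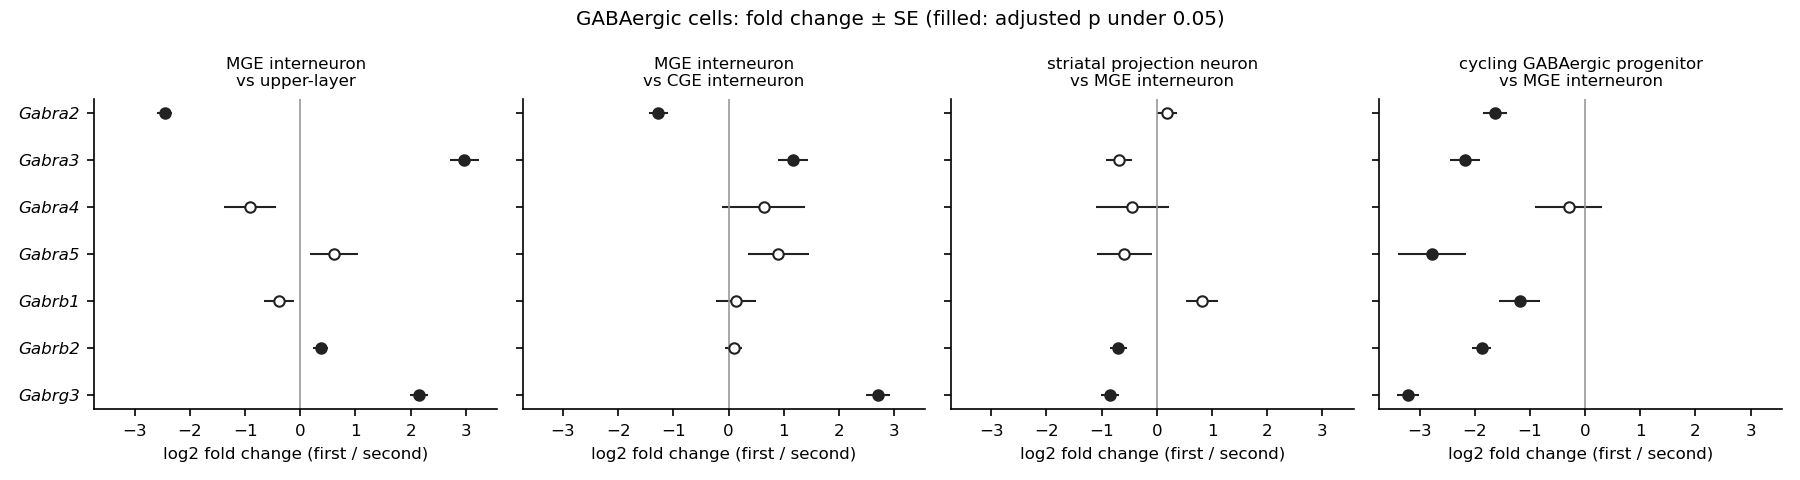
Log2 fold change (x axis) of each subunit in 4 comparisons of GABAergic gates, with the first-named gate over the second. Bars are the SE of the edgeR fit over 2 libraries, filled points have an adjusted p under 0.05. Gabrg3 was higher in MGE interneurons than in upper-layer and CGE neurons, and 6 subunits were lower in cycling GABAergic progenitors than in MGE interneurons.

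Cycling GABAergic progenitors had 6 of 7 subunits lower than MGE interneurons, where 43.8% of all genes were called in either direction. The median log2 fold change was -1.87 over the subunits. Gabrg3 was the furthest apart, at -3.20 ± 0.20 on the log2 scale (edgeR BH-adjusted p = 8.31e-14). Gabra5 followed with -2.78 ± 0.61 from 6 and 32 UMIs (edgeR BH-adjusted p = 0.00047), and Gabra3 with -2.18 ± 0.27 (edgeR BH-adjusted p = 1.35e-07). Gabrb2, Gabra2 and Gabrb1 had log2 fold changes of -1.87, -1.63 and -1.19. In replicates 1 and 2 alone the log2 ratios were -1.29 and -2.79 for Gabra3 and -0.52 and -1.78 for Gabrb1, whose call was lost with thinning. Gabra4, with 12 and 11 UMIs, did not pass. Removal of cells with high doublet scores left 185 of 200 and 278 of 327 progenitors and lowered their subunit levels. Over all gates, 118 levels resting on at least 10 UMIs were compared, and 14 fell by more than 1.5 times, 9 of them in this gate. The log2 fold changes against MGE interneurons without those cells were -2.37 for Gabra2, -2.87 for Gabra3, -3.43 for Gabra5, -1.84 for Gabrb1 and -2.49 for Gabrb2, so the differences were larger and the 6 calls were kept.

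Progenitors of the 2 lineages differed from each other. Against RGC, the cycling GABAergic progenitors had 4 subunits called, 2 in each direction, where 35.3% of all genes were. Gabrb1 was lower (log2 fold change -4.05 ± 0.25, edgeR BH-adjusted p = 1.95e-13), as was Gabra4 (-3.51 ± 0.40, edgeR BH-adjusted p = 2.93e-08). Gabrb2 was higher by 1.58 ± 0.28 (edgeR BH-adjusted p = 5.25e-05) and Gabra3 by 1.86 ± 0.53 (edgeR BH-adjusted p = 0.00677). The call of Gabra3 was lost after removal of cells with high doublet scores and with thinning, and that of Gabrb2 with thinning. With the high doublet scores removed the log2 fold changes were -5.33 for Gabrb1 and -4.18 for Gabra4. In replicates 1 and 2 alone the log2 ratios were 2.32 and 0.90 for Gabrb2, 2.60 and 0.94 for Gabra3, and -4.46 and -2.96 for Gabra4. The GABAergic gate requires cell cycle genes and the RGC gate does not. Cycling RGC met a rule on the same cell cycle genes with a higher UMI minimum than that of the GABAergic gate. In these RGC, Gabrb1 was at 192 and 128 CPM and Gabra4 at 41.8 and 40.0 CPM. These levels were above the 18.1 and 7.74 CPM and the 1.17 and 4.07 CPM of the GABAergic progenitors. That pair of gates was not tested.

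The division of RGC and IPC by cell cycle genes, of MGE cells by Maf or Mef2c against Nkx2-1 or Lhx8, and of striatal neurons by direct-pathway against indirect-pathway markers was tested in a fit over 8 sub-gates, where 6 of the 7 subunits and 10782 genes were tested. Gabra5 did not pass the filter. Between cycling RGC (85 and 89 cells) and non-cycling RGC (27 and 49 cells), 0 of 6 subunits were called by edgeR, where 7.09% of all genes were. With DESeq2 0 subunits were called, where 402 of 10782 genes were. There were 3 of 6 at an unadjusted p under 0.05, as were 19.1% of all genes. Non-cycling RGC had Gabrb1 at 274 and 227 CPM, above the cycling values just given, and Gabra4 at 0 and 30.7 CPM, below them.

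Cycling IPC (20 and 37 cells) differed from non-cycling IPC (80 and 140 cells) in 1 subunit, where 10.8% of all genes were called. At an unadjusted p under 0.05 there were 5 of 6, as were 22.8% of all genes. Gabrb1 was at 11.5 and 33.5 CPM in cycling and 82.7 and 62.8 CPM in non-cycling IPC (log2 fold change -1.64 ± 0.52, edgeR BH-adjusted p = 0.0339). Its call was not retained with DESeq2 (log2 fold change -1.67) or thinning (-2.46). The log2 ratio was -2.63 in replicate 1 alone and -0.86 in replicate 2 alone. Gabra4 lay the other way, at 23.1 and 30.5 CPM in cycling and 1.69 and 13.6 CPM in non-cycling IPC, but did not pass (log2 fold change 1.65 ± 0.70, edgeR BH-adjusted p = 0.14). The difference between the cycling effects in RGC and IPC was called for 0 of 6 subunits by edgeR, where 0.00927% of all genes were called. With DESeq2 it was called for 0 subunits, where 4 of 10782 genes were called. There were 0 of 6 at an unadjusted p under 0.05, as against 7.85% of all genes.

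In MGE cells with Maf or Mef2c (253 and 387 cells) against those with Nkx2-1 or Lhx8 (20 and 25 cells), 2 subunits were called, where 5.85% of all genes were. Gabrg3 was at 262 and 274 CPM in the former and 9.62 and 95.1 CPM in the latter (log2 fold change 2.33 ± 0.44, edgeR BH-adjusted p = 0.000469). Of the 12 Gabrg3 UMIs in the latter cells of replicate 2, 8 came from 1 cell, and the log2 ratio was 4.19 in replicate 1 alone and 1.47 in replicate 2 alone. Gabrb1 was called lower in the Maf or Mef2c cells (log2 fold change -2.03 ± 0.58, edgeR BH-adjusted p = 0.0273), but 16 of the 19 UMIs behind the level of 151 CPM in replicate 2 came from 1 cell. In replicate 1 alone the log2 ratio was 0.11, from levels of 25.4 and 19.2 CPM, so the call rests on 1 library. It was not retained with DESeq2 or thinning. Without cells of high doublet score the Maf or Mef2c level was 16.1 and 5.35 CPM, from 14 and 8 UMIs in place of 24 and 30. The call was kept there, with a log2 fold change of -3.08 (edgeR BH-adjusted p = 0.00197).

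Direct-pathway-like striatal neurons (100 and 152 cells) differed from indirect-pathway-like neurons (38 and 55 cells) in 1 subunit, where 3.51% of all genes were called. Gabrb1 was at 54.2 and 118 CPM in the former and 5.03 and 6.93 CPM in the latter (log2 fold change 3.79 ± 0.74, edgeR BH-adjusted p = 0.000735). The levels did not overlap and rest on 121 and 3 UMIs, a pooled ratio of 14.8 with an exact 95% counting interval of 4.96 to 73.0. The log2 ratio was 2.87 in replicate 1 alone and 3.78 in replicate 2 alone, and the call was lost with thinning. Gabrg3 lay the other way, at 119 and 105 CPM in the former and 237 and 180.1 CPM in the latter, without passing (log2 fold change -0.90 ± 0.30, edgeR BH-adjusted p = 0.102). It passed when only these 2 sub-gates were fitted.

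**Figure D5:**
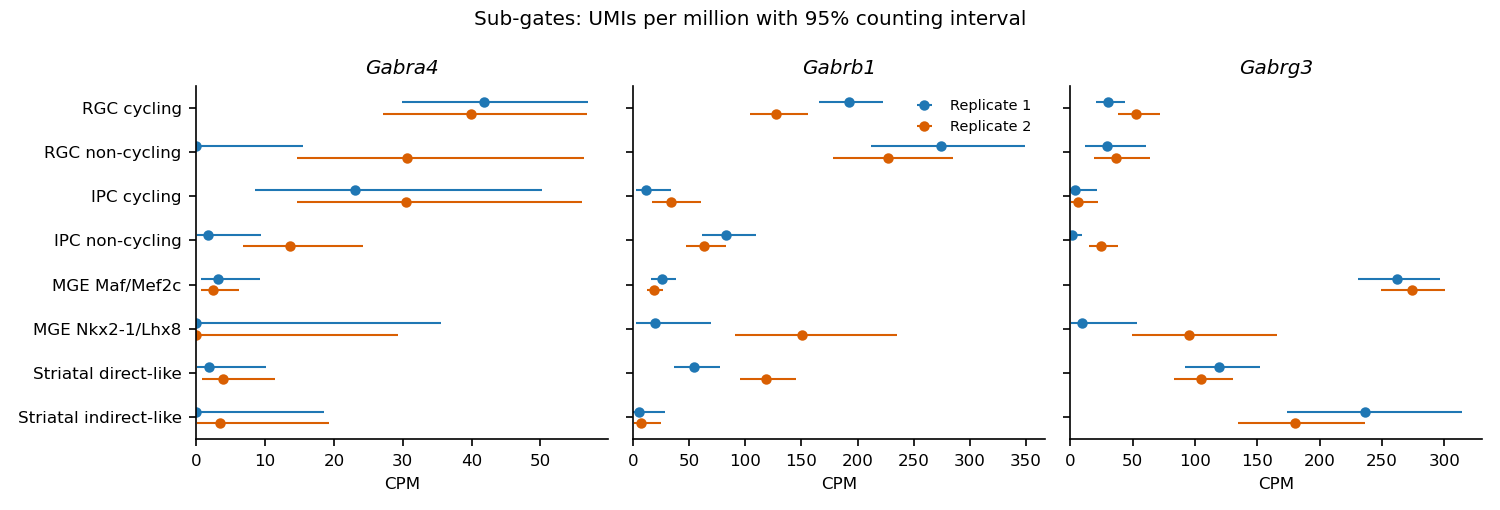
Level (x axis, UMIs per 1000000, CPM) of Gabra4, Gabrb1 and Gabrg3 in 8 sub-gates. Points are the 2 libraries and bars the 95% Poisson counting interval of each. Gabrb1 was at 54.2 and 118 CPM in direct-pathway-like and at 5.03 and 6.93 CPM in indirect-pathway-like striatal neurons, and in Nkx2-1 or Lhx8 MGE cells its replicate 2 value of 151 CPM is mostly 1 cell.

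The levels of the subunits across the 11 tested gates were compared as a description only, since all points come from the same 2 libraries. Gabra3 and Gabra5 had a Pearson correlation of 0.78, Gabrb2 had 0.76 with Gabra5 and 0.73 with Gabra2, and the head-to-head pair Gabra4 and Gabrb1 had 0.76. Gabra2 and Gabra4, which lie 473884 bases apart on chromosome 5, had -0.07. The neighbours Gabrg3 and Gabra5 had 0.41, near the 0.42 of Gabrg3 and Gabra3, which lie on different chromosomes. Gabra4 had -0.67 with Gabra3 and -0.51 with Gabra5. A link between position and these values was not tested. Of 9516 candidate genes outside the gates, those most like each subunit across the gates were Macrod2 for Gabra2 (0.96), Dpp6 for Gabra3 (0.96), D330023K18Rik for Gabra4 (0.96), Gm29587 for Gabra5 (0.97), Ankrd45 for Gabrb1 (0.95), Socs7 for Gabrb2 (0.97) and Tspoap1 for Gabrg3 (0.94). Each value is the largest of 9516 correlations over 11 gates and was picked for its size, so its size is no test of likeness.

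Of 8 further subunit genes, Gabrg1 alone passed the filter. It was highest in Olig glia, at 44.9 and 46.5 CPM, from 13 and 17 UMIs, and lower in upper-layer neurons than in RGC (log2 fold change -1.70 ± 0.65, edgeR BH-adjusted p = 0.028). That call rests on replicate 2, with 8.09 CPM in RGC and 1.04 CPM in upper-layer neurons from 12 and 6 UMIs. In replicate 1 the levels were 1.94 and 1.90 CPM, from 3 and 6 UMIs. The other 7 (Gabra6, Gabre, Gabrp, Gabrq, Gabrr1, Gabrr2 and Gabrr3) had at most 33 UMIs each over the 17 gates of both libraries, and Gabra6 had none. Among 19 genes for anchoring, trafficking, the metabotropic GABA-B receptor and chloride transport, 13 were called between upper-layer neurons and RGC, 12 higher and 1 lower, where 56.4% of all genes were called. The median log2 fold change was 0.71 for these 19 genes and 0.04 for all genes. Gabbr2, a GABA-B receptor subunit, was higher by 5.26 ± 0.33 (edgeR BH-adjusted p = 2.6e-14), Shisa7, an auxiliary GABA-A subunit, by 5.05 ± 0.50 (edgeR BH-adjusted p = 6.4e-10), and Iqsec3, a postsynaptic partner of gephyrin, by 3.46 ± 0.55 (edgeR BH-adjusted p = 4e-06). Slc12a2, the chloride importer, was lower (log2 fold change -1.06 ± 0.18, edgeR BH-adjusted p = 1.5e-05). The exporter Slc12a5, named as its counterpart after its values were seen, had a log2 fold change of 1.503 ± 0.73 between these gates (edgeR BH-adjusted p = 0.0803) and was higher in MGE than in upper-layer neurons by 2.30 ± 0.41 (edgeR BH-adjusted p = 5.6e-05).

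Between IPC and newborn neurons 10 of these 19 genes were higher and none lower, where 35.7% of all genes were called. Between cycling GABAergic progenitors and MGE interneurons 2 were higher and 10 lower in the progenitors, where 43.8% of all genes were called. Between RGC and IPC 4 of 19 were called, where 26% of all genes were, a share near that background, and Slc12a2 was lower in IPC (log2 fold change -1.17 ± 0.23, edgeR BH-adjusted p = 0.000208). Between MGE and CGE interneurons 1 of 19 was called, where 7.11% of all genes were, again near the background. It was Plcl1, which binds GABA-A receptor beta subunits and was lower in MGE interneurons (log2 fold change -1.97 ± 0.13, edgeR BH-adjusted p = 3.07e-12).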

How the data were processed

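The deposited values are raw UMI counts per gene and cell barcode, made by the authors from papain-dissociated E16.5 cortex with the 10x Genomics 3′ v3.1 kit and Cell Ranger (version 7.0.0 in the submitters' processing notes, 7.1.0 in the file headers) on mm10, with no normalization. The gene annotation, the strand setting and whether intronic reads were counted are not given in the sources used here. The libraries held 9049 and 13556 barcodes and 46398156 and 64324236 UMIs.

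Cells with 1500 to 60000 UMIs and under 10% mitochondrial UMIs were kept, which left 65.9% and 75.6% of barcodes. Cells were gated on 78 marker genes. Cells in more than 1 gate (12 and 42) were left out, and 2981 and 5349 cells met no gate. Doublets were not removed in the main result. As an alternative, the cells with the highest Scrublet scores (432 and 1111) were removed at 0.8% for every 1000 barcodes, since the automatic threshold marked 0 cells in replicate 1.

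UMIs were summed per library and gate. The 11 neural gates with at least 20 cells in each library were fitted in edgeR 4.0.16 (R 4.3.3; TMM, quasi-likelihood F test, library as a block because each library supplies every gate, a minimum of 10 UMIs in 2 or more sums), and the 8 sub-gates in a second fit. Adjustment followed Benjamini-Hochberg across every gene in the fit. SE is the log2 fold change divided by the square root of F. The steps were tested on simulated data. DESeq2 1.42.0, RLE size factors, no filter, no block, pair-only fits, stricter gates and thinning to 1500 UMIs were alternatives. CPM is UMIs per 1000000. Gating used Python 3.11.15 and scanpy 1.11.5.

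Named genes were the 7 subunits in every comparison, other subunits and 19 partner genes where called (by largest fold), and for each subunit the genes most correlated across gates among those with at least 20 CPM in their highest gate. The members and lists were chosen with earlier results of these data known. Some genes of the family are not reported here. Intervals and floors (3 counts) cover counting error only.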

Additional observations from a re-analysis of the deposited data

How the results depend on the processing

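Of 107 fold changes of the subunits tested, 46 were called. The call was kept for 46 of 46 with RLE size factors, 45 of 45 in fits of only the compared gates, 44 of 46 with no filter on low counts, 43 of 45 after doublet removal, 39 of 42 with stricter gates, 39 of 46 with DESeq2 and 31 of 43 after thinning, which leaves fewer UMIs. No called change turned direction in these fits. The fit without the replicate block kept 45 of 46 calls and lost Gabra4 in newborn neurons against IPC. In that fit the number of subunits called stayed at 3 for IPC against RGC, where 3320 of 13767 genes were called. Within 1 library only ratios could be given, so no counts of calls, and Gabrb1 in MGE cells (Maf or Mef2c against Nkx2-1 or Lhx8) turned from -2.03 to 0.11 without replicate 2, against -3.06 without replicate 1. The log2 ratios of 5 of 46 called changes without replicate 1 and 13 of 46 without replicate 2 moved by more than 1 SD between the libraries. That SD comes from the same 2 ratios and grows with their disagreement. The counts therefore do not measure how far a change depends on 1 library. Gabrb1 above was the 1 that turned direction. Among called log2 fold changes that kept their call, thinning moved these by over 1.5 times: Gabra4 (-2.56) and Gabrb2 (3.44) in newborn neurons against IPC, Gabrg3 in deep-layer against upper-layer neurons (-2.24), Gabra3 in MGE against upper-layer neurons (2.18), Gabrg3 in MGE against CGE interneurons (3.68), and in cycling GABAergic progenitors Gabrb2 against MGE interneurons (-2.49) and Gabra4 against RGC (-7.13). Stricter gates moved Gabra5 in newborn neurons against IPC (3.82) and Gabrb1 in cycling GABAergic progenitors against MGE interneurons (-1.83). Doublet removal, applied to the levels after the data were seen, moved 14 of 77 mean levels beyond 1 SD between the libraries. Asking for 2 UMIs in place of 1 lowered 84 of 84 shares of cells with a UMI, by up to 24.8 percentage points.

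The number of subunits called moved by over 1.5 times as follows, and the cause was not tested except where a setting leaves fewer UMIs. After thinning it was 3 in newborn neurons against IPC, where 1748 of all 10355 genes tested were called. It was 2 in cycling GABAergic progenitors against RGC after thinning, where 2000 of 10355 genes were called. For Zbtb20-high against upper-layer neurons it was 0 with DESeq2 (1000 of 13767 genes called), thinning (816 of 10355) or stricter gates (1480 of 13165). It was 4 for striatal neurons against MGE interneurons with no filter (1725 of 24268 genes called) and in the pair-only fit (1797 of 10747). For direct-pathway-like against indirect-pathway-like neurons it was 2 with no filter (449 of 21182) and in the pair-only fit (529 of 7193). It was 1 for cycling RGC after doublet removal (865 of 10591 genes called) and in the pair-only fit (1142 of 8254). For cycling IPC it was 0 with DESeq2 (675 of 10782) or thinning (203 of 6653). For the MGE division it was 1 with DESeq2 (444 of 10782) or thinning (248 of 6653).

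Log2 fold changes that had not been called turned direction under these settings. With thinning they were Gabra3 in IPC against RGC (-3.89), in upper-layer against newborn neurons (0.90) and in Zbtb20-high against upper-layer neurons (-0.022), Gabra4 (-0.28) and Gabrb1 (-0.40) in the last of these, Gabra2 in cycling GABAergic progenitors against RGC (0.028) and Gabrg3 in cycling IPC (0.52). With stricter gates they were Gabra2 (0.00014), Gabra3 (-0.050) and Gabra5 (-0.10) in IPC against RGC, Gabra5 in upper-layer against newborn neurons (-0.11), Gabrg3 in Zbtb20-high against upper-layer neurons (0.030), Gabrb1 in MGE against upper-layer neurons (0.24) and Gabra2 in cycling GABAergic progenitors against RGC (0.079). With doublet removal they were Gabra3 in IPC against RGC (-0.021), Gabrg3 in Zbtb20-high against upper-layer neurons (0.014), Gabra4 (-0.46) and Gabrb1 (-0.28) in MGE against CGE interneurons, Gabra4 in striatal neurons against MGE interneurons (0.26) and Gabra4 in cycling GABAergic progenitors against MGE interneurons (0.017).

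Stricter gates and doublet removal were not run for sub-gates left with under 20 cells. Depth limits Gabra5 and Gabra4 most, since several gates hold under 10 UMIs of either.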
